A study of Mus musculus with 16 samples.

Results

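The genes described here are 10 chemokines that glia are known to make in injured white matter: Ccl2, Ccl3, Ccl4, Ccl5, Ccl6, Ccl12, Cxcl9, Cxcl10, Cxcl13 and Cxcl16. They were chosen by name, and every probe whose accession on the array maps to one of these symbols was used. This gave 11 probes, 2 of them for Cxcl16, among 41153 probes for 18737 named genes. The tissue was the corpus callosum of male mice, which the methods give as C57BL/6 animals of 7 to 8 weeks, and RNA was hybridised to single-colour Agilent arrays. Of the 16 arrays, 3 were from untreated mice on normal diet, 3 came from animals given cuprizone (CPZ) for 2 weeks, 4 from animals given it for 4 weeks and 6 from animals returned to regular diet after 4 weeks of it. CPZ is a copper chelator given in the diet, at 0.2 to 0.4% per the labels and 0.2% per the methods, and it kills oligodendrocytes and strips myelin from this tract. No gene was altered in any group. The methods name 2 lengths of regular diet, 2 days and 14 days, and the labels do not say which array belongs to which, so the regular diet group mixes both and its arrays are also given one by one. The untreated mice were matched to the 4-week group, so diet and age at other times cannot be told apart.

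Chemokines are small secreted proteins that guide cells along a gradient, and they act through receptors that span the membrane of the responding cell. Microglia, the resident macrophages of the brain, and astrocytes are known to make several of them when myelin is lost, and in most forms of neuroinflammation they draw monocytes, T cells or B cells. Ccl2 and Ccl12 are ligands of Ccr2, Cxcl9 and Cxcl10 are ligands of Cxcr3, Cxcl13 is the ligand of Cxcr5 and Cxcl16 that of Cxcr6.

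Most of these genes lie in clusters. In the mouse gene table (GRCm38.p6), Ccl9, Ccl6, Ccl3 and Ccl4 follow one another on chromosome 11, Ccl2 lies beside Ccl7 on the same chromosome, Ccl12 lies between Ccl11 and Ccl8, and on chromosome 5 only Art3 lies between Cxcl9 and Cxcl10. The RefSeq table used here held a promoter for 6 of the 10 genes. The 250 bases before the start are shown for 3 of them: Cxcl10 and Ccl3, which were both called after 2 and after 4 weeks of CPZ, and Cxcl9, the neighbour of Cxcl10, which was not well above background on most CPZ arrays. Capitals mark matches to the motifs that were searched. The windows are chr5:92348890-92349139 for Cxcl10, chr5:92328080-92328329 for Cxcl9 and chr11:83649379-83649628 for Ccl3, all on the minus strand and written 5′ to 3′.
Cxcl10: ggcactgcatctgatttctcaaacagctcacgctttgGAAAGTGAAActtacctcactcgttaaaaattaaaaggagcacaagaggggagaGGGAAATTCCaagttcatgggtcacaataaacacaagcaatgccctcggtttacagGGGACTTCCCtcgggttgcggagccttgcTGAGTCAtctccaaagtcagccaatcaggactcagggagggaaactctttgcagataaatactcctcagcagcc
Cxcl9: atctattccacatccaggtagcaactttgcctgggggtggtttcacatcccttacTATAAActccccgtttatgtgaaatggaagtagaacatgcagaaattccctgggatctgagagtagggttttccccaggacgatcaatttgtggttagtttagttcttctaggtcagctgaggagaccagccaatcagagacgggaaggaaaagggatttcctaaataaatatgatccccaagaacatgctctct
Ccl3: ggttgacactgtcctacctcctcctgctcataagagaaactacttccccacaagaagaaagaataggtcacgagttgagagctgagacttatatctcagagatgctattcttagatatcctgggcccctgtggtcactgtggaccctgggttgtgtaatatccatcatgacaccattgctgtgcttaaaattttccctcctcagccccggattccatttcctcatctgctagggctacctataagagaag

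The Cxcl10 window held 1 match to the interferon-response core (GAAA, any 2 bases, GAAA), which began 213 bases before the start, 2 matches to the NF-kB consensus, at 159 and 103 bases, and 1 match to the AP-1 motif TGANTCA, at 74 bases. None of these matches overlapped another. Over 32851 promoter windows of this length, 2.98% held the interferon-response core, 3.90% the NF-kB consensus, 6.75% the AP-1 motif and 7.02% the motif TTCNNNGAA, each searched on both strands. The Cxcl9 window held only TATAAA, searched on the given strand and present in 7.59% of windows, and it began 195 bases before the start. The Ccl3 window held no match. These matches describe the letters only and were not tested against the arrays.

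Values are the deposited log2 values, on which the median of the 3 untreated arrays is 0 for each probe, so 1 unit is a 2-fold difference within a probe. The columns of that table and the scanner files disagreed on which sample an array is: 14 of the 16 columns matched the scanner file recorded for another sample, 13 of them one of another group. The table's own column names were used throughout, and the flags for signal above background came from the scanner array that each column matched. Between 57.3% and 72.2% of probes were well above background on an array. By the matched arrays, the 16 lay on 4 slides of 4, each with more than 1 group. The recorded files would place all 3 untreated arrays on one slide and regular diet arrays 3 to 6 alone on another, so every within-slide value and slide block given here rests on the match. The corpus callosum was recognisable by its oligodendrocyte markers, with 7 of 7 on the array above background in untreated tissue, and their mean value ran from -0.67 to 0.43 on untreated arrays, from -5.00 to -1.83 at 2 weeks, from -4.36 to -1.43 at 4 weeks and from -3.39 to 0.51 on regular diet. The mean of 9 microglia markers ran from -0.10 to 0.85 on untreated arrays, from 0.08 to 1.23 at 2 weeks, from 0.92 to 1.95 at 4 weeks and from 1.03 to 4.24 on regular diet, and none of the 9 was called against untreated. At 2 weeks the 9 did not move alike: Tyrobp (1.45 to 2.90) and Trem2 (1.03 to 2.23) lay above all untreated arrays, while Itgam (-1.32 to 0.21), P2ry12 (-0.93 to 0.15) and Tmem119 (-0.53 to 0.21) overlapped them. The mean of 7 astrocyte markers ran from -0.40 to 0.49, from 0.11 to 1.06, from 0.36 to 1.31 and from 0.58 to 0.82 in the same order, and that of 5 T cell markers from -0.19 to 0.28, from 0.77 to 1.13, from 0.21 to 1.35 and from 0.20 to 1.87. None of the 7 astrocyte markers was called, nor were Cd3e and Lck, the 2 T cell markers that could be tested. The part of these cells in the chemokine values was not tested. In tissue RNA, more cells of a type and more RNA per cell cannot be told apart.

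In untreated tissue, these chemokines lay low. Ccl2, Ccl3, Cxcl9 and Cxcl13 were not well above background on any of the 3 untreated arrays. Ccl4 was well above background on 2 of the 3, and the dimmer Cxcl16 probe on 1. Ccl5, Ccl6, Ccl12, Cxcl10 and the brighter Cxcl16 probe were well above background on all 3. No chemokine spot was saturated on any array. For Ccl2 and Ccl3 a fold against untreated tissue is therefore a lower bound on the ratio of group means. For each untreated array, the probe's own signal or the lowest signal well above background was taken, whichever was higher. The bound is the mean of the brighter group over the mean of these values. It allows for the dim untreated signal only and not for the spread between arrays.

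**Figure D1:**
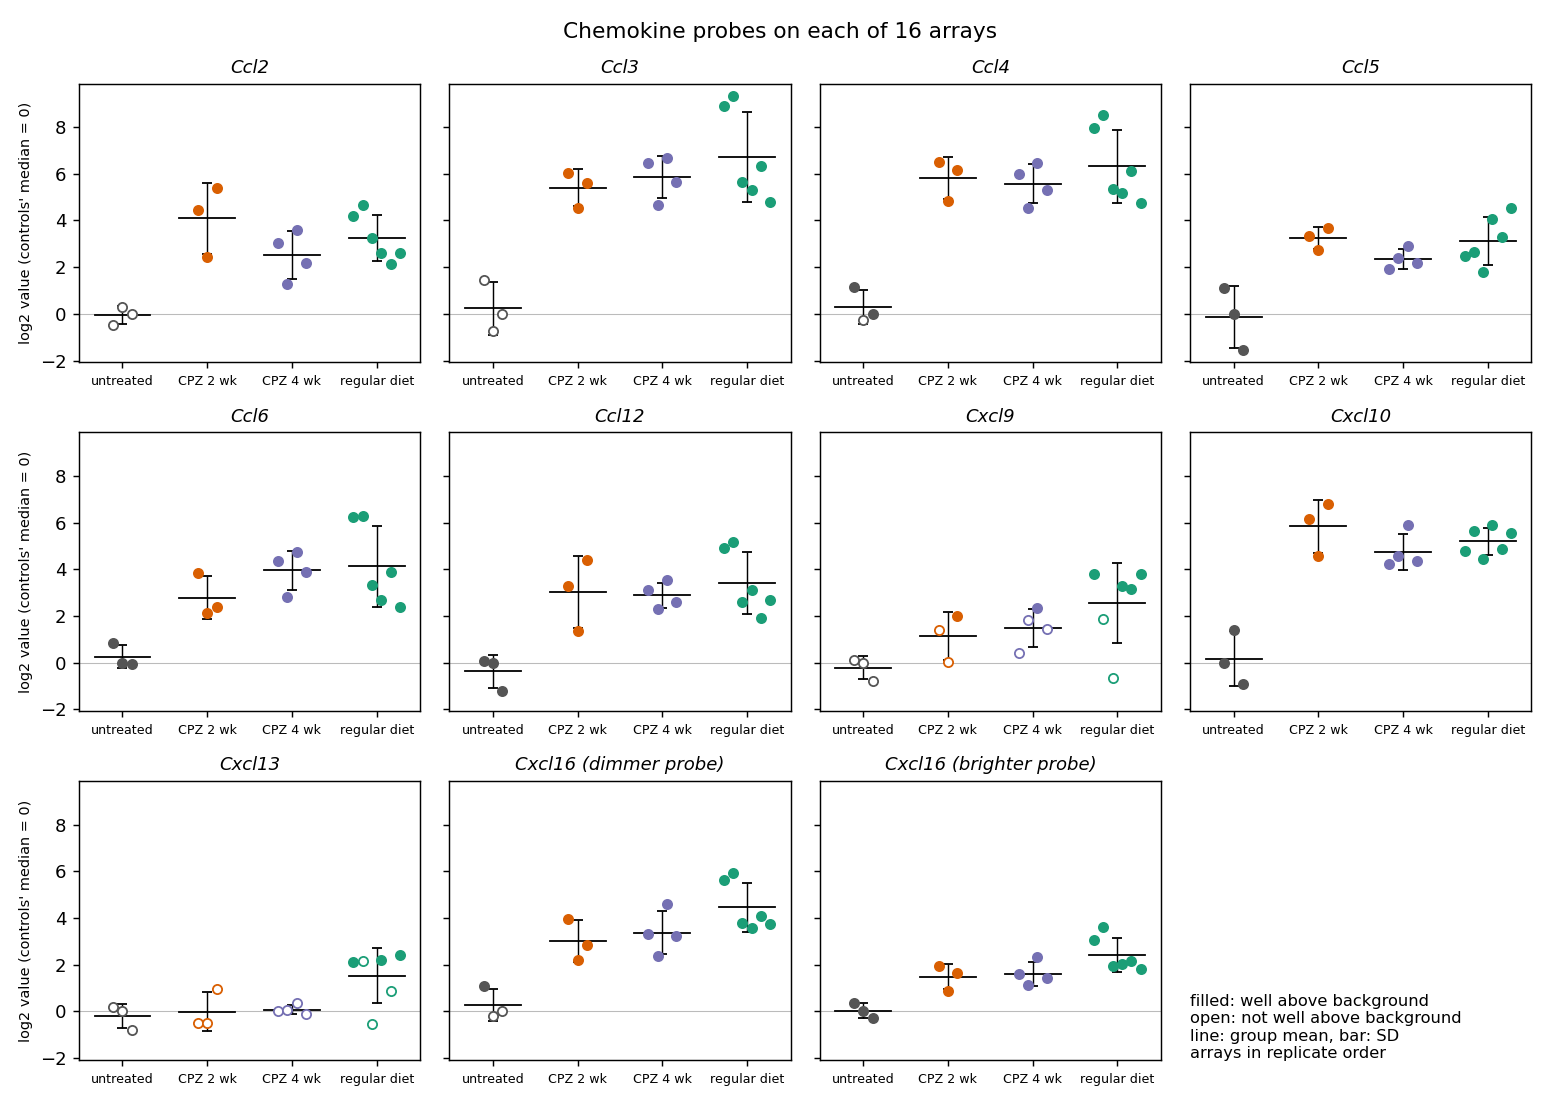
Deposited log2 values (y axis, median of the untreated arrays at 0) of 11 chemokine probes on 16 arrays, grouped as 3 untreated, 3 CPZ 2 wk, 4 CPZ 4 wk and 6 regular diet arrays (x axis). Filled points were well above background and open points were not, lines are group means and bars are SD. Ccl3, Ccl4 and Cxcl10 had every CPZ array above 4, Cxcl13 stayed near 0 on the CPZ arrays, and regular diet arrays 1 and 2 lie above the other regular diet arrays for Ccl3, Ccl4, Ccl6, Ccl12 and Cxcl16.

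Ccl3 and Ccl4, neighbouring genes whose products (MIP-1α and MIP-1β) attract monocytes and T cells, were above background on every CPZ array. Ccl3 stood at 1.46, -0.75 and 0 on the untreated arrays, none of them well above background. It stood at 6.05, 4.52 and 5.62 after 2 weeks of CPZ and at 6.45, 4.65, 6.66 and 5.66 after 4 weeks. Every CPZ array lay above every untreated array. The difference was 5.16 at 2 weeks (SE 0.69, adjusted p = 0.0317) and 5.62 at 4 weeks (SE 0.64, adjusted p = 0.0263), in limma with Benjamini-Hochberg adjustment over all probes tested. The lower bounds on the ratio of means were 25.1-fold and 34.6-fold (4.65 and 5.11 in log2), without allowance for the spread between arrays. The 95% intervals of the differences, 3.61 to 6.72 and 4.17 to 7.07, reach below these bounds. Ccl4 stood at 1.13, -0.27 and 0 on the untreated arrays, at 6.52, 4.82 and 6.18 after 2 weeks and at 5.99, 4.53, 6.45 and 5.32 after 4 weeks. These groups did not overlap either. The difference was 5.55 at 2 weeks (SE 0.61, adjusted p = 0.0202) and 5.28 at 4 weeks (SE 0.57, adjusted p = 0.0174), with 2 of the 3 untreated arrays above background. With all 4 groups in 1 fit, Ccl3 did not pass at either time (adjusted p = 0.0891 and 0.101) and Ccl4 did not at 4 weeks (0.0739).

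Cxcl10, an interferon-induced ligand of Cxcr3, was above background on all 16 arrays. It stood at 0, 1.41 and -0.92 on the untreated arrays, at 6.15, 4.58 and 6.79 after 2 weeks and at 4.21, 4.55, 5.89 and 4.37 after 4 weeks. The lowest CPZ array was more than 2 units above the highest untreated array. Cxcl10 rose by 5.68 at 2 weeks (SE 0.73, adjusted p = 0.0304), or 51.3-fold, and by 4.59 at 4 weeks (SE 0.68, adjusted p = 0.0481), or 24.2-fold. Array 3 was the highest of its group at both times. The 4-week call did not hold with quantile normalization (adjusted p = 0.0669), with centred arrays (0.0572) or with no filter (0.0584). It was also lost after normexp background correction (0.0838), with a block for replicate number (0.248) and in the methods' test (0.135). The 2-week call was lost with only the 2 groups compared (adjusted p = 0.111), with that block (0.252) and in the methods' test (0.135). With the recorded sample assignment neither call held.

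Ccl6, a chemokine of myeloid cells, stood at 0.84, 0 and -0.06 on the untreated arrays, at 3.84, 2.13 and 2.37 after 2 weeks and at 4.34, 2.81, 4.76 and 3.89 after 4 weeks. It was above background on all of these arrays, and no CPZ array reached down to the untreated ones. The difference passed the test at 4 weeks (3.69, SE 0.54, adjusted p = 0.0454, 12.9-fold) and not at 2 weeks (2.52, SE 0.58, adjusted p = 0.119). The direct comparison of 4 weeks with 2 weeks did not pass (1.17, 95% interval -0.05 to 2.38, adjusted p = 0.471), so Ccl6 was not shown to differ between these times. The 4-week call did not hold with quantile normalization (adjusted p = 0.0669), with centred arrays (0.0572), with no filter (0.0563), with all 4 groups in 1 fit (0.204) or in the methods' test (0.162).

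Ccl2 (MCP-1) and Ccl12 (MCP-5) are ligands of Ccr2, the receptor by which monocytes leave the blood. Ccl2 stood at -0.48, 0.30 and 0 on the untreated arrays, at 4.44, 2.43 and 5.40 after 2 weeks and at 3.05, 1.28, 3.58 and 2.17 after 4 weeks. The CPZ arrays did not overlap the untreated ones but spread over 2.96 units at 2 weeks. The difference was 4.15 at 2 weeks (SE 0.77, 95% interval 2.41 to 5.89, adjusted p = 0.0728). It was 2.58 at 4 weeks (SE 0.72, 95% interval 0.95 to 4.21, adjusted p = 0.198), and neither difference passed the test. The lower bounds on the ratio of means were 12.5-fold and 3.93-fold (3.65 and 1.97 in log2), without allowance for the spread between arrays. Both intervals reach below these bounds. Ccl12 stood at 0.08, 0 and -1.20 on the untreated arrays, at 3.29, 1.35 and 4.41 after 2 weeks and at 3.10, 2.28, 3.52 and 2.62 after 4 weeks. Its differences of 3.39 (SE 0.71, adjusted p = 0.0958) and 3.25 (SE 0.67, adjusted p = 0.0927) did not pass either. Array 2 of each CPZ group had the lowest value of both genes.

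Ccl5 (RANTES), which T cells and glia can make, stood at 1.11, 0 and -1.53 on the untreated arrays, the widest untreated range of the list. It stood at 3.35, 2.73 and 3.67 after 2 weeks and at 1.93, 2.40, 2.92 and 2.16 after 4 weeks. All CPZ arrays lay above the untreated ones. The difference was 3.39 at 2 weeks (SE 0.59, adjusted p = 0.0643) and 2.49 at 4 weeks (SE 0.55, adjusted p = 0.109), and neither passed. Cxcl16, a membrane-bound ligand of Cxcr6, was measured by 2 probes that gave the same direction and different sizes. The brighter probe stood at 0.37, 0 and -0.28 on the untreated arrays, at 1.95, 0.89 and 1.65 after 2 weeks and at 1.59, 1.12, 2.34 and 1.45 after 4 weeks. Its differences were 1.46 (SE 0.37, adjusted p = 0.151) and 1.59 (SE 0.35, adjusted p = 0.107). The dimmer probe gave 2.72 (SE 0.62, adjusted p = 0.120) and 3.09 (SE 0.58, adjusted p = 0.0820), so no Cxcl16 difference passed under CPZ in this fit.

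Cxcl9, an interferon-γ-induced ligand of Cxcr3, was well above background on 1 of 3 arrays at 2 weeks and on 1 of 4 at 4 weeks, and was not tested. It stood at 0.13, 0 and -0.78 on the untreated arrays, at 1.40, 0.03 and 2.01 after 2 weeks and at 0.41, 1.81, 2.34 and 1.46 after 4 weeks. The array above background was the highest of its group at each time. Cxcl13, which attracts B cells, stood at 0.21, 0 and -0.78 on the untreated arrays, at -0.48, -0.51 and 0.95 after 2 weeks and at 0.02, 0.07, 0.37 and -0.12 after 4 weeks. It was not well above background on any of these 10 arrays, and the 2-week and 4-week arrays overlapped the untreated ones. With no filter on dim probes, neither gene passed the limma test at either time (adjusted p = 0.571 and 0.332 for Cxcl9, 0.906 and 0.972 for Cxcl13).

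Over the genes of the list, 3 of the 8 tested were called higher at 2 weeks (Ccl3, Ccl4 and Cxcl10) and 4 of the 8 at 4 weeks (the same 3 genes and Ccl6), where a call needs an adjusted p under 0.05 together with a change of 2-fold or more. Of all 27498 probes tested, 0.0691% were called higher at 2 weeks and 0.0909% at 4 weeks. All 8 had every CPZ array above every untreated array at both times, as did 8.37% of all probes at 2 weeks and 5.29% at 4 weeks. The median difference over the 8 genes was 3.77 at 2 weeks and 3.47 at 4 weeks, against 0.04 and -0.03 over all probes. These counts leave out Cxcl9 and Cxcl13, and 4 of the 9 tested probes (Ccl2, Ccl3, Ccl4 and the dimmer Cxcl16 probe) passed the filter only through groups in which they were high, so the shares describe the tested probes and not the list. Both comparisons share the untreated arrays. The methods give 3 to 6 mice per condition and the labels number the arrays as replicates. Neither states that each array is 1 mouse, and p-values measure the spread between arrays.

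Both the calls and the sizes of these differences depended on the setting. Within slides that held both groups, all 9 tested probes were higher after 2 weeks (1 slide, 1.42 to 6.47) and after 4 weeks (2 slides, 1.87 to 7.41). When the slide entered the fit as a fixed block, 6 of the 8 genes were called at 2 weeks and 8 at 4 weeks, and Ccl2 (adjusted p = 0.0467 and 0.0246), Ccl5 (0.0467 and 0.0172) and Ccl12 (0.0495 and 0.0153) then passed at both times. Both Cxcl16 probes passed at 4 weeks with the slide fixed (adjusted p = 0.0282 and 0.0174) and random (0.0287 and 0.0294). Over all probes, the calls then rose from 53 to 123 at 2 weeks and from 48 to 479 at 4 weeks. The methods' test, here an F test over the 3 groups followed by Tukey's comparison, called 0 chemokines and 0 of all probes at both times. Its groups of arrays may differ from those the study entered. At 2 weeks the count fell to 0 without untreated array 1 or 3, without 2-week array 1 or 3 or without 4-week array 4, and to 1 without untreated array 2. At 4 weeks it fell to 0 without untreated array 2 or 3, without 2-week array 3 or without 4-week array 1, 3 or 4, and to 2 without untreated array 1. It rose to 5 at 2 weeks without 2-week array 2. Leaving out each of the 10 arrays, all differences from untreated stayed above 0. At 2 weeks those of Ccl12 ran from 2.69 to 4.22, of Ccl2 from 3.50 to 4.98 and of Cxcl10 from 5.14 to 6.31. At 4 weeks that of Ccl5 ran from 1.80 to 3.12 and that of Ccl4 from 4.99 to 5.71. Among called genes, the fold moved by over 1.5 times for Ccl3 without untreated array 1 (5.77 at 2 weeks, 6.23 at 4 weeks) and for Cxcl10 without untreated array 2 (6.30 and 5.22) or 2-week array 2 (6.31 at 2 weeks). After normexp background correction with an offset, the 4-week differences were smaller, 2.23 for Cxcl10, 2.06 for Ccl3 and 2.42 for Ccl4, and Cxcl10 and Ccl3 no longer passed. At 2 weeks the Ccl3 difference was then 1.74 and did not pass (adjusted p = 0.108), while Ccl5 passed (2.26, adjusted p = 0.0179). With each scanner file kept under the sample recorded for it, 0 of the 8 genes were called in any comparison, and the 4-week difference was -1.56 for Cxcl10 and -0.65 for Ccl3.

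**Figure D2:**
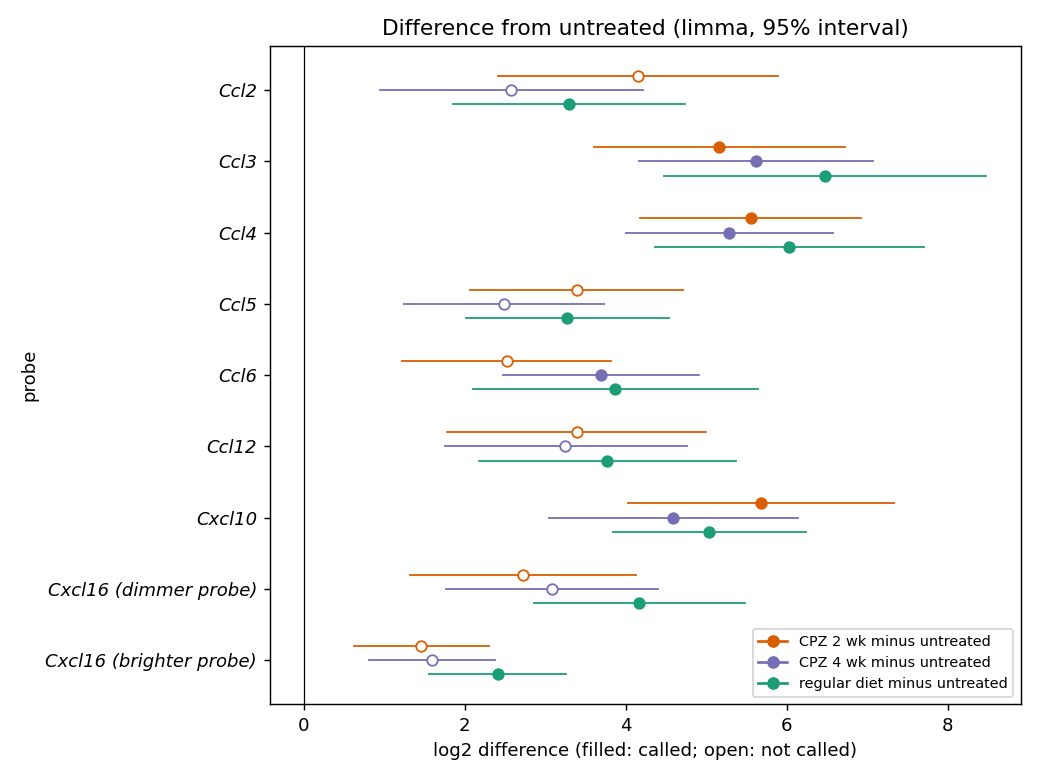
Log2 difference from untreated (x axis) with its 95% interval for 9 tested chemokine probes (y axis), from limma, for the 2-week, 4-week and regular diet groups. Filled points were called and open points were not. All intervals lie above 0, and the regular diet difference was called for every probe shown.

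No chemokine was called between 4 and 2 weeks of CPZ, and 0 of the 9 tested probes reached an unadjusted p under 0.05 in limma in either direction. Over all probes, 4.69% reached that p with a higher value at 4 weeks, and the share with a lower value is not given here. The methods' test called 0 as well. Over all probes, 0.0109% were called lower and 0% higher. Ccl2 had the lowest estimate, -1.57 (95% interval -3.20 to 0.06), and Cxcl10 stood at -1.09 (-2.63 to 0.46) and Ccl5 at -0.90 (-2.13 to 0.34). Ccl3 differed by 0.46 (-0.99 to 1.91) and Ccl4 by -0.27 (-1.55 to 1.02). These intervals leave room for differences of 2-fold or more in either direction for Ccl4 and Ccl12. With array weights in limma, 5 genes were called, Ccl2, Ccl5, Ccl12 and Cxcl10 lower (-3.18, -1.47, -1.75 and -2.36) and Ccl6 higher (1.51), but the weights stopped before they converged and 2487 of all probes were then called.

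On regular diet, all 8 tested chemokines were called higher than in untreated tissue, beside 0.792% of all 27778 probes, and all had every regular diet array above every untreated array, as did 4.93% of all probes. The median difference was 3.82 over the 8 genes and -0.02 over all probes. As in the CPZ fit, Ccl2, Ccl3, Ccl4 and the dimmer Cxcl16 probe were tested only because groups other than untreated were above background, so the count describes the tested probes and not the list. Ccl5, Ccl6, Ccl12, Cxcl10 and the brighter Cxcl16 probe were above background on every array. Ccl3 ran from 4.77 to 9.32 with a median of 5.99. Its difference was 6.48 (SE 0.94, 95% interval 4.47 to 8.48, adjusted p = 0.00546). The lower bound on its ratio of means was 62.6-fold (5.97 in log2), without allowance for the spread between arrays. The interval reaches below this bound. Ccl4 ran from 4.76 to 8.53 with a median of 5.74, a difference of 6.03 (SE 0.78, adjusted p = 0.00491). Both probes had their highest values of the study here. Cxcl10 ran from 4.46 to 5.91 with a median of 5.22, the narrowest regular diet range of the list, and rose by 5.04 (SE 0.56, adjusted p = 0.00262). Ccl6 ran from 2.38 to 6.28 (difference 3.87, adjusted p = 0.0459), Ccl12 from 1.92 to 5.17 (3.77, adjusted p = 0.0290), Ccl2 from 2.15 to 4.65 (3.30, adjusted p = 0.0371) and Ccl5 from 1.79 to 4.52 (3.27, adjusted p = 0.0180). Since Ccl2 was not well above background on any untreated array, its ratio of means has only a lower bound, 6.97-fold (2.8 in log2). The 95% interval of its difference, 1.85 to 4.74, reaches below this bound. Cxcl16, which had not passed under CPZ in the fit without the slide, did so on both probes, with differences of 2.41 (SE 0.40, adjusted p = 0.0112) and 4.17 (SE 0.61, adjusted p = 0.00635). The number of genes called fell to 1 without untreated array 3, to 4 without untreated array 2 and to 5 without untreated array 1 or regular diet array 1. Without untreated array 1 the difference was 7.09 for Ccl3 and 3.90 for Ccl5, without untreated array 2 it was 5.67 for Cxcl10, and without untreated array 3 it was 2.58 for Ccl5. The methods' test called 1 of the 8 genes. The count was also 1 after normexp correction, where only Cxcl10 passed. The other differences were then smaller, 0.50 for Ccl2, 0.70 and 1.20 for Cxcl16, 1.63 for Ccl12, 2.21 for Ccl5, 2.85 for Ccl3, 3.14 for Ccl4 and 3.28 for Ccl6. Fitting the slide as a fixed block left 7, and Ccl6 then did not pass (adjusted p = 0.0580). Ccl6 also did not pass with quantile normalization (0.0510), centred arrays (0.0507) or no filter (0.0586), which left 7 each. With only the 2 groups compared, Ccl6 (0.145), Ccl5 (0.104) and Ccl12 (0.0763) did not pass. Within the 3 slides that held both groups, all 9 probes were higher on each, by 1.67 to 7.80.

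The regular diet arrays did not order the genes alike. For Ccl2, Ccl3, Ccl4, Ccl6, Ccl12 and Cxcl16, regular diet arrays 1 and 2 had the highest values. Ccl3 stood at 8.89 and 9.32 on these arrays and at 5.63, 5.32, 6.34 and 4.77 on arrays 3 to 6. Ccl6 stood at 6.26 and 6.28 on them and at 3.31, 2.67, 3.87 and 2.38 on the others. For Ccl5, arrays 4 and 6 were highest instead. It stood at 2.49, 2.63, 1.79, 4.08, 3.29 and 4.52 on arrays 1 to 6, and array 6 was its highest of the study. The mean of the 9 microglia markers was 3.91 and 4.24 on arrays 1 and 2 and 1.03 to 1.30 on the other 4. The mean of 5 T cell markers was 0.98, 1.11 and 0.20 on arrays 1 to 3 and 1.45 to 1.87 on arrays 4 to 6. Of the T cell markers, Cd3e was above background on all 16 arrays and ran from -0.03 to 0.29 on untreated and from 0.12 to 0.66 on regular diet arrays, and Lck was above background on 2 of 3 and 6 of 6. Cd3d, Cd8a and Cd3g were above background on no untreated array and on 4, 3 and 1 of the 6 regular diet arrays, and Cd3d was so on 2 of 3 arrays at 2 weeks and 3 of 4 at 4 weeks. The mean of the oligodendrocyte markers was -3.39, -3.35 and -2.61 on regular diet arrays 1 to 3 and -0.12, -0.03 and 0.51 on arrays 4 to 6. The part of the oligodendrocyte markers in them was not tested either.

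Cxcl9 and Cxcl13 were well above background on some of the regular diet arrays. Cxcl9 stood at 3.81, 1.89, -0.66, 3.30, 3.14 and 3.79 on arrays 1 to 6, and was above background on arrays 1, 4, 5 and 6. The mean of the 6 was at least 1.73-fold above the untreated bound. Cxcl13 stood at 2.13, 2.16, -0.54, 2.20, 0.86 and 2.44, and was above background on arrays 1, 4 and 6. Array 3 was lowest for both and overlapped the untreated arrays. For Cxcl13 the mean of the 6 did not exceed the untreated bound, so no fold is given. With no filter on dim probes, neither gene passed on regular diet (adjusted p = 0.214 for Cxcl9 and 0.274 for Cxcl13).

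**Figure D3:**
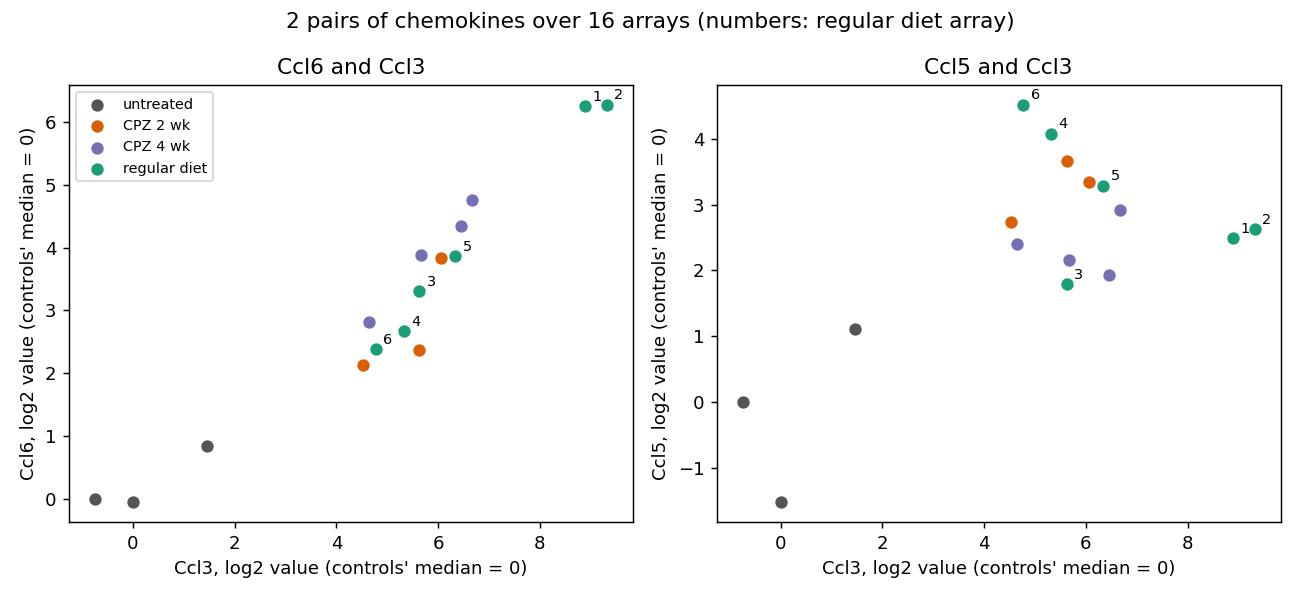
Deposited log2 values of Ccl6 against Ccl3 (left) and of Ccl5 against Ccl3 (right), one point per array, for the 16 arrays in 4 groups. The numbers name the regular diet arrays: arrays 1 and 2 lie highest for both Ccl3 and Ccl6, while arrays 6 and 4 lie highest for Ccl5.

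Between regular diet and 4 weeks of CPZ, none of the 8 chemokines was called, with 0.0036% of all probes called higher and 0% lower. The methods' test called 0 as well. The estimates were all above 0, from 0.18 for Ccl6 (95% interval -1.44 to 1.80) to 1.08 for the dimmer Cxcl16 probe (-0.11 to 2.28). The brighter Cxcl16 probe, at 0.82 (0.04 to 1.60), was the only one with an unadjusted p under 0.05 in limma, and its adjusted p was 0.184. Of all probes, 13.3% reached that p with a higher value. Ccl3 differed by 0.86 (-0.97 to 2.69) and Cxcl10 by 0.45 (-0.65 to 1.54). These intervals do not show that the chemokines were at the same level.

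**Figure D4:**
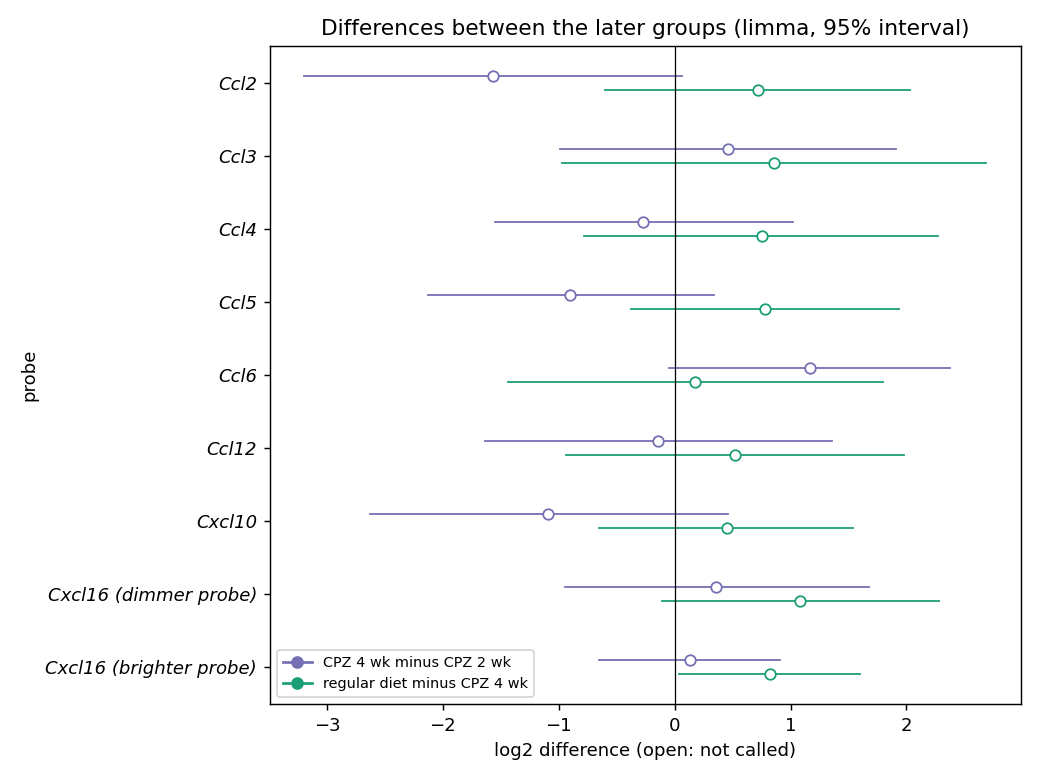
Log2 difference (x axis) with its 95% interval for 9 tested chemokine probes (y axis), from limma, for 4 weeks against 2 weeks of CPZ and for regular diet against 4 weeks of CPZ. All points are open, since none was called, and only the brighter Cxcl16 probe on regular diet has an interval that leaves out 0.

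Chemokine receptors were taken as a whole family, which includes receptors of other ligands. Of 23 receptor genes on the array, 11 were not well above background on any array, among them Ccr1, Ccr2 and Cxcr5, receptors of Ccl3, of Ccl2 and of Cxcl13. None of the 11 tested was called after 2 or 4 weeks of CPZ in limma, with 3 higher at an unadjusted p under 0.05 each time, and none of the 12 tested on regular diet, with 6 higher at that p. Of all probes, 4.27%, 5.05% and 6.07% were higher at that p after 2 weeks, after 4 weeks and on regular diet. Cxcr6, the receptor of Cxcl16, was not well above background on any untreated array. It was above background on 3 of 3, 3 of 4 and 6 of 6 arrays of the other groups. The lower bounds on its ratio of means were 2.05-fold, 1.46-fold and 2.51-fold, without allowance for the spread between arrays. None of its differences passed (adjusted p = 0.154, 0.274 and 0.0654). Its 4-week and regular diet arrays overlapped the untreated ones. Cxcr3 differed by 1.42, 1.01 and 1.56 (adjusted p = 0.400, 0.565 and 0.118).

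Among known inducers of chemokines, the cytokine Il1b was not well above background on any untreated array and was so on all 2-week and regular diet arrays. It was also so on 3 of 4 arrays at 4 weeks. The lower bound on its ratio of means was 2.42-fold at 2 weeks (adjusted p = 0.0712) and 1.46-fold at 4 weeks (adjusted p = 0.109). On regular diet the bound was 3.43-fold (adjusted p = 0.00717), and Il1b was called there. Irf7, a transcription factor of the interferon response, differed by 2.23, 1.86 and 2.28 (adjusted p = 0.0886, 0.114 and 0.0175) and was called on regular diet. Irf1 (1.08, adjusted p = 0.0702) and Nfkbia, an inhibitor of NF-kB (-0.76, adjusted p = 0.477), were not called on regular diet. Tnf was well above background on 2 regular diet arrays only, Ifng on 1 and Ifnb1 on none of the 16. Over the list, 2 of 6 tested genes were called on regular diet by their brightest probe and 0 at 2 or 4 weeks, where 4 and 3 had an unadjusted p under 0.05 and were higher. Of all probes, 0.792% were called higher on regular diet, and 4.27% and 5.05% were higher at that p at 2 and 4 weeks. Il1b was tested only because groups other than untreated were above background, and Tnf, Ifng and Ifnb1 were not tested. The counts therefore describe the tested genes and not the list.

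Of 26 other chemokine ligands on the array, 9 were not well above background on any array, and 0 of 11 tested in the CPZ comparisons and 0 of 12 on regular diet were called in limma. Their median difference was 0.09 at 2 weeks, 0.30 at 4 weeks and 0.15 on regular diet, against 0.04, -0.03 and -0.02 over all probes. In the same order, 2, 1 and 2 of them had an unadjusted p under 0.05 and were higher. Of all probes, 4.27%, 5.05% and 6.07% were higher at that p, and 0.0691%, 0.0909% and 0.792% were called higher. Ccl7 and Ccl9, named after their values were seen, are neighbours of Ccl2 and Ccl6. The brighter Ccl7 probe was not well above background on untreated arrays and was tested only because all 2-week arrays were above background. It ran from 1.83 to 3.71 at 2 weeks, 0.25 to 2.16 at 4 weeks and 1.16 to 2.35 on regular diet, with an adjusted p of 0.0728 at 2 weeks. Ccl9 was above background on all 16 arrays and ran from 1.46 to 3.01, 1.72 to 3.23 and 1.51 to 4.44, with differences of 1.72, 2.09 and 2.18 (adjusted p = 0.244, 0.122 and 0.204).

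The genes with the most similar values over the 16 arrays were sought for Cxcl10, Ccl3 and Ccl6 among 13974 named genes. For Cxcl10 they were Ifit1 (Pearson r = 0.965), Oasl1 (r = 0.962) and Gbp6 (r = 0.961), all known as interferon-induced genes. For Ccl3 they were Bcl2a1b (r = 0.986), Cst7 (r = 0.985) and Cd52 (r = 0.984), and for Ccl6 3830403N18Rik (r = 0.979), Cd52 (r = 0.978) and Bcl2a1b (r = 0.975). These values have no p and span groups of which the untreated arrays lie apart, so they hold the difference between groups as well as that between arrays.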

How the data were processed

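The authors deposited each array's spot intensity from Agilent Feature Extraction 11.0.1.1, background-subtracted but not scaled between arrays, and a table of log2 values scaled to the 75th percentile and centred on the untreated arrays. The centring was found from the values (control median 0 for 100% of probes). The log2 table was used, and 99.77% of its values lay within 0.05 of those recomputed from the matched scanner arrays (r = 1.0 for the match, at most 0.888 for any other array). Probes were named through their accession (27459 of 41153), with GRCm38.p6 used for names and promoters.

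Probes that all arrays of 1 or more groups flagged as well above background were fitted in limma 3.58.1 (R 4.3.3): 10 arrays for CPZ, 16 for regular diet, checked on simulated data. Called means an adjusted p under 0.05 and at least 2-fold. The number of arrays limits the precision. The members and lists were chosen with earlier results of these data known. The text names all members, receptors and inducers fixed by rule, list genes that were called, and the 3 most similar genes of 3 members; some genes of these lists are not reported here. The normexp alternative used median spot signals. Alternatives covered scaling, filter, slide, sample assignment, test and weights.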

Additional observations from a re-analysis of the deposited data

How the results depend on the processing

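Counts of chemokine genes called (3 at 2 weeks, 4 at 4 weeks, 8 on regular diet, 0 in the other comparisons) depended on the setting. At 2 weeks the count was 6 with the slide as a fixed or random block, 8 with array weights and 0 with only the 2 groups compared, with the methods' test, with the recorded sample assignment or with the replicate block. It was 2 with all 4 groups fitted or the strict filter. At 4 weeks it was 8 with the slide as a fixed block, 7 as a random block, 8 with array weights, 6 with only the 2 groups compared, 2 with quantile normalization, normexp, centred arrays, no filter or the strict filter, 1 with all 4 groups fitted and 0 with the methods' test, the recorded assignment or the replicate block. On regular diet it was 7 with the slide fixed, quantile normalization, centred arrays or no filter, 5 with the strict filter or only 2 groups compared, 1 with normexp or the methods' test and 0 with the recorded assignment. The strict filter kept only probes well above background on every array. Ccl2, Ccl3 and Ccl4 were then untested, and all 5 genes left were called on regular diet. At 2 weeks, Ccl5 passed with that filter (3.39, adjusted p = 0.0445). Array weights, which did not converge, gave 5 between 4 and 2 weeks. The counts over all probes were 53 at 2 weeks, 48 at 4 weeks and 223 on regular diet. Array weights called 1753, 1900 and 1071 of all probes, the 2 groups alone 207 at 4 weeks and the slide as a random block 310, 415 and 328, while, with all arrays kept, each setting that gave 0 chemokines against untreated called 0 of all probes in that comparison. Leaving out each array gave 0 to 5 at 2 weeks, 0 to 5 at 4 weeks, 1 to 8 on regular diet and 0 in the other comparisons. With the replicate block, the count was 0 at 2 and 4 weeks and 2 on regular diet, but arrays of the same number correlated from -0.81 to 0.20 in their deviations and share only a number. Why the counts moved was not tested.

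Under the recorded assignment the sign turned for Ccl2 at 2 weeks (-0.17), for Cxcl10 (-1.56), Ccl2 (-1.39), Ccl4 (-1.01), Ccl5 (-1.61), Cxcl16 (-0.18, dimmer probe), Ccl12 (-1.12) and Ccl3 (-0.65) at 4 weeks, for Ccl2 (-0.33) and Ccl5 (-0.46) on regular diet, and between 4 and 2 weeks for Ccl6 (-0.75), Cxcl16 (-1.52 and -0.69) and Ccl3 (-1.86). Between 4 and 2 weeks it also turned with the slide fixed for Ccl4 (0.49), Ccl5 (0.01) and Ccl12 (0.74), with the slide random for Ccl4 (0.02) and Ccl12 (0.19), and with array weights for Cxcl16 (-0.17). For Ccl6 on regular diet against 4 weeks it turned with the slide fixed (-0.14) and with array weights (-0.31). Leaving out an array turned the small differences between 4 and 2 weeks of Ccl4 (-0.78 to 0.08), Ccl12 (-0.97 to 0.56) and Cxcl16 (-0.05 to 0.85 and -0.17 to 0.36), and that of Ccl6 between regular diet and 4 weeks (-0.25 to 0.53). In every other setting the differences from untreated kept their sign. Signal over background limits Ccl2, Ccl3, Cxcl9 and Cxcl13 in untreated tissue, and in part Ccl4 and the dimmer Cxcl16 probe.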
